A study of Mus musculus with 4 samples.

Results

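The natriuretic peptide system was examined in mouse hearts through 7 genes: the hormone genes Nppa and Nppb, the processing proteases Corin and Furin, and the receptors Npr1, Npr2 and Npr3. They were taken by symbol from a list drawn up for the pathway, and all 7 were among the 12408 genes measured. RNA sequencing had been done on hearts of C57BL/6 mice, 3 months old, in 4 groups with 1 library each. The mice of all 4 groups carried the WW45 flox/flox alleles. WW45 is the gene listed as Sav1, a scaffold of the Hippo kinases. Mice of the 2 groups called cKO also carried alpha-MHC-CRE, a Cre recombinase whose promoter is active in cardiomyocytes, so other cells of the heart keep the gene. The 2 CT groups are labelled with the floxed alleles alone. A group with Cre but without floxed alleles is not among the labels, so effects of Cre and of the deletion cannot be told apart. CT and cKO were each studied at baseline and after 4 weeks of transverse aortic constriction (TAC), a narrowing of the aorta that raises the pressure against which the left ventricle pumps. No library is labelled as sham-operated. The labels do not say how many hearts went into a library, so a comparison of 2 libraries has no replicate check and no p-value.

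Atrial natriuretic peptide (from Nppa) and B-type natriuretic peptide (from Nppb) are secreted by heart muscle cells under stretch and lower blood volume and pressure. Adult ventricles normally make little of Nppa, while atria make much, and both genes are classic markers of ventricular stress. The precursors are cut to active hormones by Corin, a membrane protease of cardiomyocytes, and by Furin, a protease of the secretory pathway. Npr1 binds both hormones and makes cyclic GMP, Npr2 does so for the C-type peptide, and Npr3 takes peptides out of the circulation.

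Nppa and Nppb lie next to each other on mouse chromosome 4 (mm10), both on the plus strand. Nppb spans 147985788 to 147987205 and Nppa spans 148000722 to 148002079, with 13516 bases between them. Since both hormone genes were higher together in these hearts, their upstream sequences are shown, taken from RefSeq on build GRCm38.p6. The 250 bases before the RefSeq start were searched on both strands for a GATA site (AGATAA or TGATAA), an M-CAT site (CATTCC, bound by TEAD factors), the CArG box (bound by SRF) and an NKE site (AAGTG, bound by Nkx2-5). The Nppa line covers chr4:148000472-148000721. The Nppb line covers chr4:147985795-147985821, the stretch that holds all 3 matches of that gene. Capitals mark the matches.
Nppa: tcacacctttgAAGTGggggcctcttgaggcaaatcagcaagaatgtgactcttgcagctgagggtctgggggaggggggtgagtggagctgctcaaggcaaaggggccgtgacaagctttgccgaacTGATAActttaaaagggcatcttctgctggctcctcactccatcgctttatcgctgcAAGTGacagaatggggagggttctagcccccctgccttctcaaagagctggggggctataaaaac
Nppb: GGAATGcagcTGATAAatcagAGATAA

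Nppa had 1 GATA match, its first base 122 bases before the start, and 2 NKE matches at 239 and 65 bases before it. Nppb had an M-CAT match on the minus strand 105 bases before the start, followed by GATA matches at 95 and 84 bases before it. Of 32851 promoter windows in the RefSeq table, 16.6% held a GATA match, 12.6% an M-CAT match, 40.7% an NKE match and 1.47% a CArG box. At least 2 GATA matches together with an M-CAT match, as in Nppb, were found in 0.317% of windows, a combination looked for after it was seen in Nppb. The GENCODE M21 model of Nppb starts 112 bases further upstream than the RefSeq one, so by that model these letters fall in the first exon. The other members are each in the table too, and of their windows only one of the pair listed for Furin held any match (4 NKE matches). These matches are descriptions of the letters only.

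The libraries held between 1587840 and 2796547 reads, recovered from the deposited values as described under the processing. Levels are in reads per 1000000 reads (CPM), by the library sizes that the deposited values imply. These sizes are not the recovered totals. Scaling to the totals shifts log2 ratios of cKO to CT by 0.091 at baseline and 0.094 under TAC. It shifts those of TAC to baseline by 0.008 in CT and 0.011 in cKO. The 95% Poisson intervals of the levels, and the Clopper-Pearson intervals of the ratios, cover counting error only and leave out the differences between animals. Reads are not independent molecules after PCR. Sav1, the check of the labels, had a log2 ratio of cKO to CT of -0.31 at baseline (0.59-fold to 1.09-fold). Under TAC it was 0.38 (0.941-fold to 1.81-fold), a sign against the label. Both intervals include 1, so neither difference is beyond counting error and Sav1 does not settle the labels. Counts over the whole gene do not show whether the floxed exons were lost. Every genotype direction below therefore compares the libraries as labelled. A gene is called in a comparison of 2 libraries when it is at least 2-fold apart and its interval excludes 1.

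Nppa was lowest in the unloaded control heart and far higher in the other 3 hearts. Its level was 129 CPM (349 reads, interval 116 to 144) in CT baseline, 3594 CPM (7201 reads, 3512 to 3678) in CT TAC, 2035 CPM (3327 reads, 1966 to 2105) in the library labelled cKO baseline and 6487 CPM (11929 reads, 6372 to 6605) in the library labelled cKO TAC. No 2 of these intervals overlap, and the lowest of the other 3 libraries was 15.7-fold above CT baseline. By reads per kilobase of exon, Nppa stood at place 245 in CT baseline among the 12048 genes with a GENCODE M21 exon length. On the same scale it stood at place 9 in CT under TAC, and in cKO at place 13 at baseline and place 2 under TAC. Nppa alone took 0.0125% of all reads in CT baseline and 0.673% in cKO TAC.

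Nppb was ordered in the same way over a narrower range. It had 171 CPM (460.5 reads, interval 156 to 187) in CT baseline, 1066 CPM (2135 reads, 1021 to 1112) in CT TAC, 949 CPM (1551.5 reads, 902 to 997) in cKO baseline and 1602 CPM (2945 reads, 1544 to 1661) in cKO TAC. The library labelled cKO baseline was thus close to that of CT under TAC, which was 1.12-fold higher (interval of the ratio 1.05 to 1.20). That difference is beyond counting error, and the spread between animals was not measured. For Nppa the same pair of libraries was 1.77-fold apart (1.69 to 1.84). The read values of Nppb are not all whole, and how many reads this concerns is not known.

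**Figure D1:**
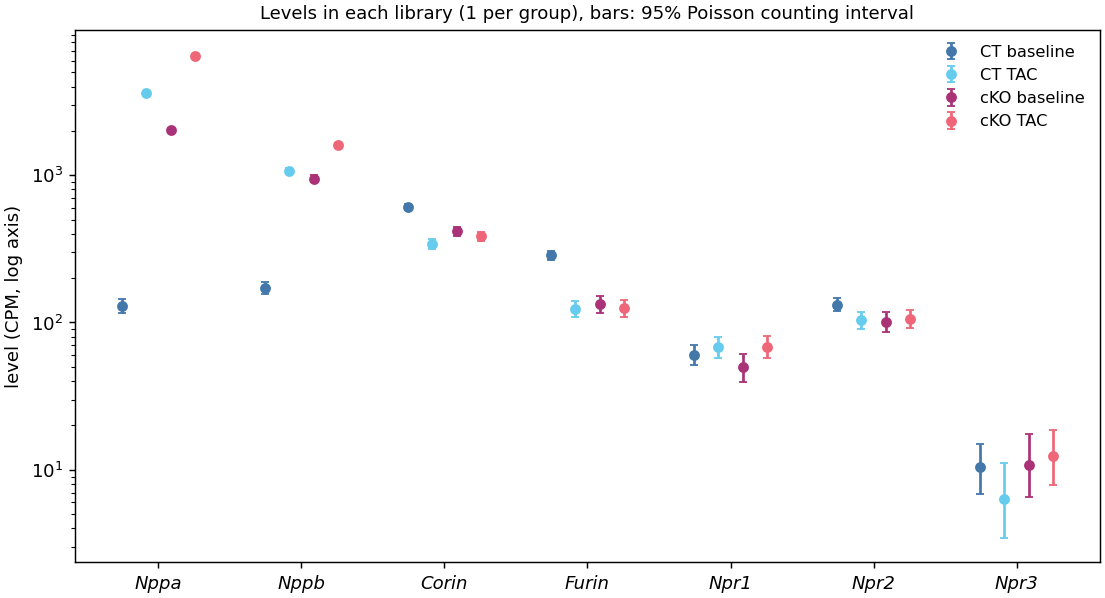
Level of each of the 7 genes in CPM (log axis) in the 4 libraries with 95% Poisson counting intervals as bars. Nppa and Nppb sit lowest in CT baseline, at 129 and 171 CPM, while Corin (607 CPM) and Furin (286 CPM) sit highest there.

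In the comparison of cKO with CT at baseline, 3 of the 7 genes were called, against 5.06% of all genes (2 higher, against 3.26%, and 1 lower, against 1.8%). Nppa was 3.97 log2 units higher in the library labelled cKO (interval 14.1-fold to 17.6-fold), the 2nd highest ratio of all genes. Nppb was 2.47 log2 units higher (5-fold to 6.17-fold), and Furin was 1.11 log2 units lower. Corin, at -0.55, and the receptors, at -0.27 for Npr1, -0.40 for Npr2 and 0.06 for Npr3, were not called. The median over the 7 genes was -0.27, beside 0.004 over all genes.

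In the comparison of TAC with baseline in CT, 3 of the 7 genes were again called, against 10.7% of all genes (2 higher, against 6.05%, and 1 lower, against 4.67%). Nppa was 4.79 log2 units higher under TAC (25-fold to 31.0-fold) and Nppb 2.64 higher (5.64-fold to 6.91-fold), while Furin was 1.20 lower. This comparison and the previous one share the CT baseline library, so the similar values in both are not separate evidence. The median over the 7 genes was -0.36, beside 0.011 over all genes.

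In the libraries labelled cKO, only Nppa of the 7 genes was called for TAC, against 6.51% of all genes (3.68% higher and 2.83% lower). It was 1.67 log2 units higher (3.07-fold to 3.31-fold), and Nppb, at 0.75 (1.59-fold to 1.80-fold), was under the 2-fold bound. The TAC response of Nppa was therefore 3.12 log2 units smaller in cKO than in CT (counting SE 0.084), or 8.69-fold. That of Nppb was 1.88 log2 units smaller (counting SE 0.087), or 3.69-fold. Both responses start from cKO baseline levels above those of CT baseline, and the end level under TAC was higher in the library labelled cKO for both genes. No test of this difference between genotypes is possible, since an interaction term leaves no residual degree of freedom.

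Under TAC, none of the 7 genes was called between the genotypes, against 5.02% of all genes (364 or 2.93% higher and 259 or 2.09% lower, or 480 higher and 185 lower with libraries scaled to total reads). Nppa was 0.85 log2 units higher in the library labelled cKO TAC (1.75-fold to 1.86-fold) and Nppb 0.59 higher (1.42-fold to 1.59-fold). Both intervals exclude 1 although neither gene reached 2-fold. With libraries scaled to total reads these values were 0.95 and 0.68, and Npr3 was then called, at 1.00.

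**Figure D2:**
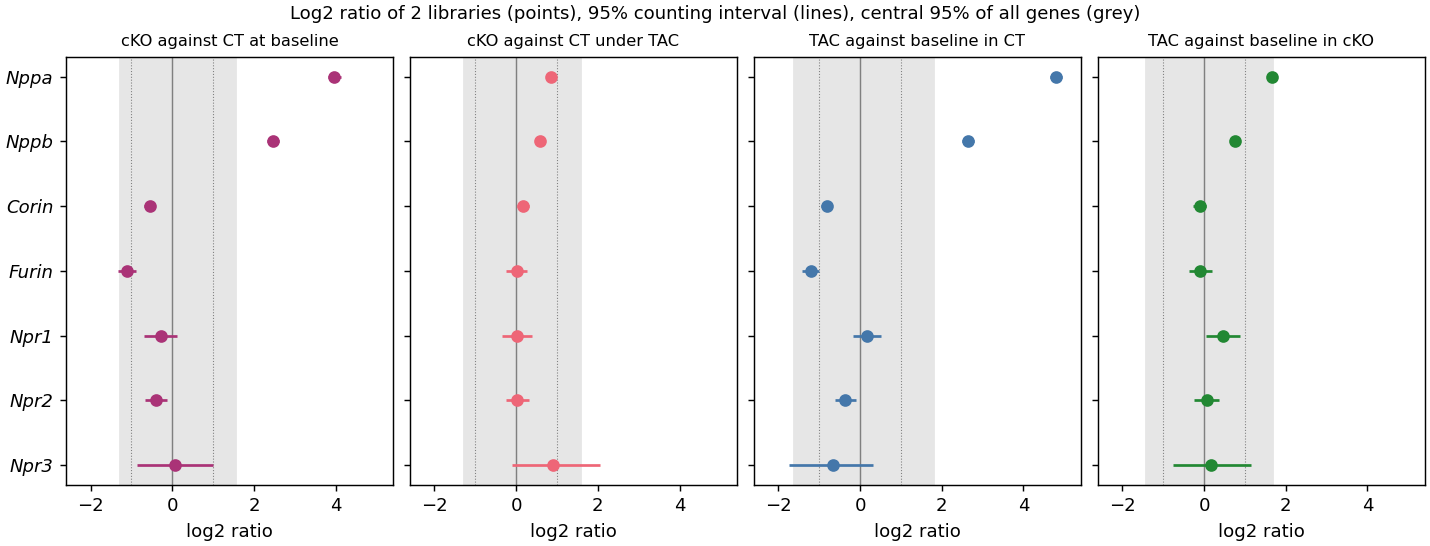
Log2 ratio of 2 libraries for each gene in the 4 comparisons (points), with the 95% counting interval (lines), 2-fold bounds (dotted) and the central 95% of all genes (grey). Nppa (3.97 and 4.79) and Nppb (2.47 and 2.64) lie beyond the grey range in the comparisons against CT baseline. Both lie inside it in the other comparisons, Nppa only just for TAC in cKO (1.67, upper bound 1.68).

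Over all 4 libraries, limma was fitted with a term for genotype and one for surgery, 2 libraries per side. Nppa rose with TAC by 3.23 on the log2 scale (SE 0.50, limma adjusted p = 0.0101) and Nppb rose by 1.70 (SE 0.33, limma adjusted p = 0.031). These were 2 of 7 genes that rose, against 1.3% of all genes, and none of the 7 fell (0.524% of all genes fell). For the genotype none of the 7 genes passed limma's adjusted test, which called 0.0242% of all genes, while 3 of the 7 had an unadjusted p under 0.05, against 964 or 7.77% of all genes. For TAC 4 of the 7 had one, against 2012 or 16.2% of all genes. Nppa differed by 2.41 (SE 0.50, limma adjusted p = 0.21), Nppb by 1.53 (SE 0.33, limma adjusted p = 0.22) and Furin by -0.55 (SE 0.25, limma adjusted p = 0.641). The fit has 1 residual degree of freedom, in which the difference of the TAC responses enters as error. Limma combines it with a prior variance drawn from all genes, worth 10.1 degrees of freedom. The degrees of freedom behind the p-values therefore come mostly from other genes. The SEs of Nppa and Nppb come mostly from their own TAC responses, which differed by 3.12 and 1.88 log2 units between genotypes. Neither source measures the spread within a group. The effects stayed at 3.23 and 1.70 without the genotype term and without the mean-variance trend, but neither passed then (limma adjusted p = 0.246 and 0.319 in the first fit, 0.344 and 0.381 in the second). With 5 reads added before the logarithm Nppb had 1.69 and did not pass (limma adjusted p = 0.0759). Leaving out 1 library, with no genotype term, left 1 side with a single library that is assumed to vary like the others. Without CT baseline the effects were 1.25 and 0.46 (limma adjusted p = 0.495 and 0.746). Without CT TAC they were 3.66 and 1.99 (0.185 and 0.291), without cKO TAC 2.81 and 1.40 (0.257 and 0.388), and without cKO baseline, where CT baseline alone stands for the baseline side, 5.22 and 2.93 (0.000933 and 0.00495).

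The balance between the hormone genes can be read within each library, free of any scaling between libraries. Per kilobase of exon, Nppa had 0.684 times the reads of Nppb in CT baseline (interval 0.593 to 0.787). It had 1.94 times those of Nppb in cKO baseline (1.82 to 2.06), 3.05 times in CT TAC (2.90 to 3.2) and 3.66 times in cKO TAC (3.51 to 3.81). Nppb was thus the more abundant message only in the CT baseline library, and no 2 of the 4 intervals overlap. Nppa was the member that differed more between libraries, over 5.64 log2 units against 3.23 for Nppb.

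Of the processing proteases, Corin (chromosome 5, 72300025 to 72504473, minus strand in GENCODE M21 on mm10) cuts the Nppa precursor at the cell surface. Corin had 607 CPM (1637 reads, interval 578 to 637) in CT baseline, 342 CPM (686 reads, 317 to 369) in CT TAC, 415 CPM (678 reads, 384 to 447) in cKO baseline and 385 CPM (707 reads, 357 to 414) in cKO TAC. CT baseline was the highest, 1.46-fold above the next library (1.34 to 1.60), and the other 3 libraries lay within 1.21-fold of each other. The log2 ratio for TAC was -0.82 in CT (0.515-fold to 0.617-fold) and -0.11 in cKO (0.833-fold to 1.03-fold), 0.72 apart with a counting SE of 0.10. Corin reached 2-fold in none of the comparisons, and in limma's fit its TAC effect was -0.47 (SE 0.20, limma adjusted p = 0.279).

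Furin (chromosome 7, 80388585 to 80405436, minus strand) cuts many precursor proteins including that of Nppb. Furin had 286 CPM (772 reads, interval 266 to 307) in CT baseline. It had 124 CPM (249 reads, 109 to 141) in CT TAC, 133 CPM (217 reads, 116 to 152) in cKO baseline and 125 CPM (230 reads, 109 to 142) in cKO TAC. Those 3 libraries lay within 1.07-fold of each other and their intervals overlap, while CT baseline was 2.16-fold above the highest of them (1.85 to 2.52). The call of Furin in both comparisons against CT baseline therefore rests on that library alone. Under TAC the genotypes differed by 0.01 log2 units (0.838-fold to 1.21-fold), and TAC in cKO gave -0.09 (0.779-fold to 1.14-fold). The TAC responses were 1.11 log2 units apart between genotypes (counting SE 0.17), and in limma's fit the TAC effect was -0.64 (SE 0.25, limma adjusted p = 0.235).

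CT baseline was the highest library for 3 of the 7 genes (Corin, Furin and Npr2) and the lowest for 2 (Nppa and Nppb). Over all genes it was the highest for 25.6% and the lowest for 26.5%.

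Hormone message set against protease message differed more between libraries than the hormone message alone. Per kilobase of exon, Nppa had 1.33 times the reads of Corin in CT baseline (interval 1.18 to 1.49), 30.6 times in cKO baseline (28.2 to 33.3), 65.5 times in CT TAC (60.6 to 71.0) and 105 times in cKO TAC (97.6 to 114). Nppb had 7.01 times the reads of Furin in CT baseline (6.24 to 7.89), 84.0 times in cKO baseline (72.8 to 97.3), 101 times in CT TAC (88.3 to 115) and 150 times in cKO TAC (132 to 173). These are ratios of messages and hold no measurement of the peptides. Whether a gene's value reflects more RNA per cell or more cells of the type that makes it cannot be told apart in RNA of mixed heart tissue.

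**Figure D3:**
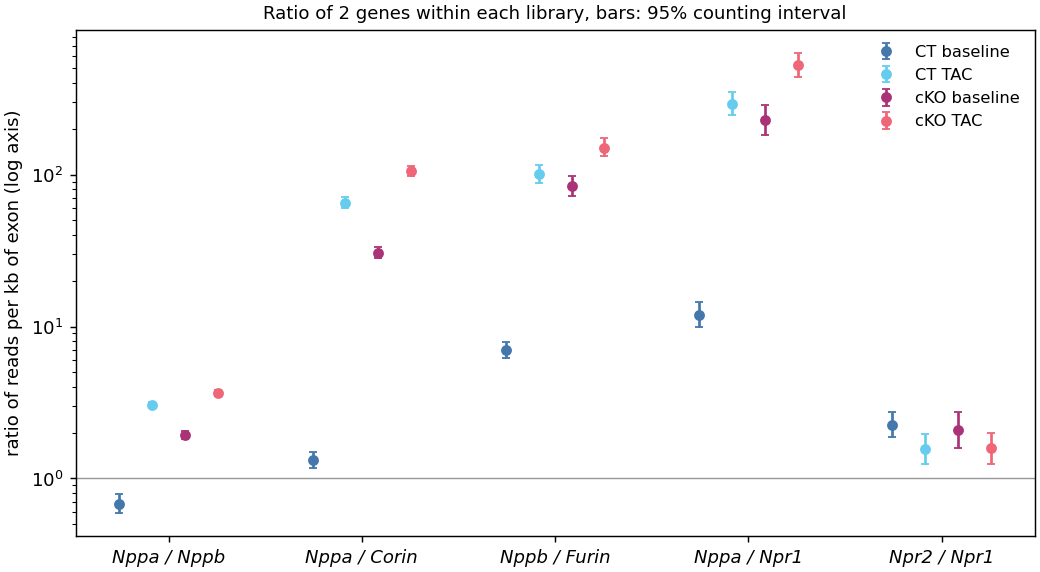
Ratio of 2 genes within each library, in reads per kilobase of exon (log axis), with 95% counting intervals as bars. The ratio of Nppa to Corin runs from 1.33 in CT baseline to 105 in cKO TAC, while that of Npr2 to Npr1 stays between 1.56 and 2.26.

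None of the 3 receptors was called in any of the 4 comparisons, which called between 5.02% and 10.7% of all genes. Npr1 (chromosome 3, 90450591 to 90465866, minus strand) is the guanylate cyclase receptor of both heart hormones. It had 60.1 CPM (162 reads, interval 51.2 to 70.0) in CT baseline, 67.9 CPM (136 reads, 57.0 to 80.3) in CT TAC, 49.6 CPM (81 reads, 39.4 to 61.6) in cKO baseline and 68.5 CPM (126 reads, 57.1 to 81.6) in cKO TAC. All 4 intervals overlap, and no neighbours in the order of levels differed beyond counting error. The largest ratio among the comparisons was that for TAC in cKO, 0.46 log2 units (1.04-fold to 1.85-fold). In limma's fit Npr1 had a TAC effect of 0.32 (SE 0.22, limma adjusted p = 0.505).

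Npr2 (chromosome 4, 43631935 to 43651244, plus strand) is the receptor of the C-type peptide. It had 132 CPM (357 reads, interval 119 to 147) in CT baseline, 103 CPM (207 reads, 89.7 to 118) in CT TAC, 100.3 CPM (164 reads, 85.6 to 117) in cKO baseline and 105 CPM (194 reads, 91.2 to 121) in cKO TAC. CT baseline was 1.25-fold above the next library (1.05 to 1.5), and the others lay within 1.05-fold. Per kilobase, Npr2 had 2.26 times the reads of Npr1 in CT baseline (1.87 to 2.74), 2.08 times in cKO baseline (1.58 to 2.74), 1.56 times in CT TAC (1.25 to 1.95) and 1.58 times in cKO TAC (1.25 to 1.99). The intervals of the baseline and TAC libraries overlap. Nppc, which encodes the C-type peptide, is not among the genes listed.

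Npr3, the clearance receptor (chromosome 15, 11839896 to 11907287, minus strand), was the least abundant member, with 10.4 CPM (28 reads, interval 6.90 to 15) in CT baseline, 6.32 CPM (12.7 reads, 3.46 to 11.1) in CT TAC, 10.8 CPM (17.7 reads, 6.53 to 17.4) in cKO baseline and 12.3 CPM (22.7 reads, 7.93 to 18.8) in cKO TAC. All 4 intervals overlap, and its read values are not all whole. Under TAC it was 0.91 log2 units higher in the library labelled cKO (0.936-fold to 4.14-fold), a difference not detectable at this depth. Npr3 is known as a gene of the endocardium, and the summed level of 3 other endocardial markers (Vwf, Plvap, Cytl1) was 99.3 CPM at baseline and 122 under TAC in CT, and 129 and 199.6 in cKO. Vwf held most of each sum, with 77.8 and 107 CPM in CT and 113 and 166 in cKO. Plvap had 12.6 and 6.49 CPM in CT and 10.4 and 17.4 in cKO. Cytl1 had 8.90 and 8.49 CPM in CT and 5.505 and 15.77 in cKO. Of the 3 markers, Plvap was called higher in cKO than in CT under TAC (1.36) and Cytl1 higher with TAC in cKO (1.44). Their part in the result for Npr3 was not tested. The 8 endothelial markers summed to between 1510 and 1758 CPM. None of them was called in any of the 4 comparisons, which called between 5.02% and 10.7% of all genes.

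Atrial muscle is the richest source of Nppa in a normal heart, so atrial markers were read beside it. Myl7, Sln, Mybphl and Bmp10 are not among the genes listed. The other 4 of the 8 markers summed to 59.1 CPM at baseline and 33.9 under TAC in CT, and to 41.9 and 31.8 in cKO. Kcnj3 held 36.1 CPM of the first sum, and without it the other 3 summed to 23.0 and 23.0 CPM in CT and 30.0 and 23.4 in cKO. Myl4, the atrial light chain, had 7 reads at baseline and 10 under TAC in CT, and 3 and 10 in cKO. Kcnj3 was lower in cKO baseline than in CT baseline (-1.56) and lower with TAC in CT (-1.68), and Kcnj5 was lower with TAC in cKO (-1.70). Dkk3, with 3 and 12 reads in CT and 1 and 18 in cKO, was called higher with TAC in both CT (ratio interval 1.45 to 29.7) and cKO (2.53 to 667). The 7 genes listed as ventricular markers, with Myh6 and then Actc1 the highest in every library, summed to between 97790 and 127300 CPM. None of them was called in any comparison, beside 5.02% to 10.7% of all genes. The 8 fibroblast markers summed to 3739 CPM at baseline and 5373 under TAC in CT, and to 4712 and 6290 in cKO. Of them 3 were called higher between genotypes at baseline (against 3.26% of all genes) and 0 under TAC (2.93%). With TAC 5 were called higher in each of CT (6.05%) and cKO (3.68%). The 6 macrophage markers summed to 291 and 448 CPM in CT and to 755 and 635 in cKO. Of them 5 were called higher between genotypes at baseline (against 3.26% of all genes). With TAC in CT 1 was called higher (6.05%), or 2 with no read added. The 8 markers of mural cells (pericytes and smooth muscle) summed to 1051 and 742 CPM in CT and to 1312 and 1057 in cKO. Without Acta2, a smooth muscle actin gene, the other 7 summed to 849 and 581 CPM in CT and 718 and 567 in cKO. Acta2 was called higher in cKO at baseline (1.56) and under TAC (1.60) and rose with genotype in the 4-library fit (1.58, limma adjusted p = 0.00913). Tagln was lower between genotypes at baseline (-1.09, and under 2-fold with total-read scaling or 5 reads added) and Abcc9 lower with TAC in CT (-1.03). For TAC the 4-library fit called 4 of the 8 fibroblast markers (Dcn, Lum, Mfap4 and Col1a1) and Dkk3 as risen, against 1.3% of all genes. Abcc9 fell in it (-0.91, limma adjusted p = 0.0298), against 0.524% of all genes. No other marker of these types passed for TAC. None of the listed markers of these types was at 0 in any library. The part of atrial, fibroblast, macrophage or mural content in the hormone results was not tested.

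Genes around the hormone pair did not show differences of its size in the comparisons against CT baseline. Log2 ratios of 6 neighbours lay there between -0.41 and 0.22 for cKO baseline, and between -0.26 and 0.53 for CT TAC. Clcn6, a chloride transporter gene whose near end lies 2179 bases beyond the end of Nppa, on the minus strand, had log2 ratios between -0.23 and 0.25 over the 4 comparisons, on 23 to 36 reads. None of the 6 neighbours examined (Miip, Mfn2, Plod1, 2510039O18Rik, Clcn6 and Agtrap) was called in any of the 4 comparisons, beside 5.02% to 10.7% of all genes. Over all 4 comparisons their ratios lay between -0.47 and 0.82. Draxin is not among the genes listed. In the annotation an antisense gene, Gm13054, overlaps Nppa. It is not among the genes listed, and the sources used here do not say whether counting used strand, so its reads could be included in Nppa. The other members except Nppb also overlap genes of the annotation on the opposite strand that are not listed.

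**Figure D4:**
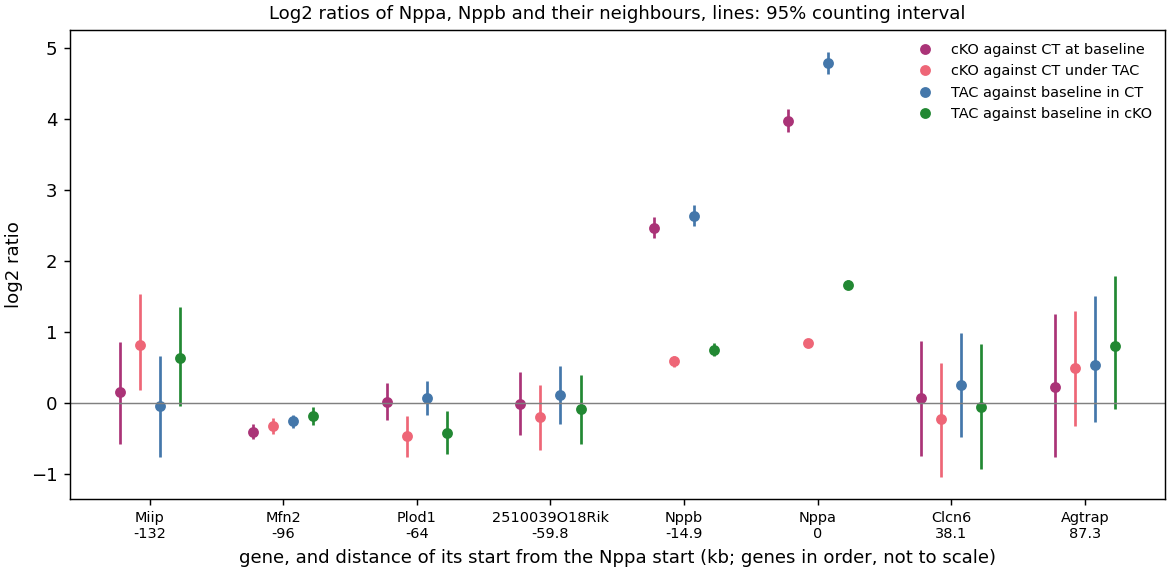
Log2 ratios in the 4 comparisons for Nppa, Nppb and 6 neighbours, placed in order along the chromosome with the distance of each start from that of Nppa in kilobases, and 95% counting intervals as lines. The neighbours lie between -0.47 and 0.82, and Nppa and Nppb reach 4.79 and 2.64.

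Other genes act in the supply and clearance of the peptides. Of 10 such genes 8 were listed, and 1 was called at baseline between genotypes (against 5.06% of all genes), 1 under TAC (5.02%), 2 for TAC in CT (10.7%) and 1 for TAC in cKO (6.51%). Their median log2 ratios were 0.14, -0.08, -0.07 and -0.14 in that order, beside medians over all genes of 0.004, 0.007, 0.011 and -0.004. Mme, which encodes neprilysin, the protease that breaks down natriuretic peptides, had 26 reads in CT baseline and 5 in each of the remaining libraries. Its log2 ratio was -1.51 in cKO baseline (0.0952-fold to 0.840-fold) and -1.76 in CT TAC (0.0777-fold to 0.685-fold), both against CT baseline. The other calls rest on few reads. Dpp4, a protease of the cell surface, had 2 reads at baseline and 9 under TAC in CT, and 3 and 1 in cKO. It was called for TAC in CT (1.25-fold to 57.6-fold) and between genotypes under TAC (0.00276-fold to 0.874-fold). Pcsk5, a relative of Furin, had 12 reads in cKO TAC against 2 in cKO baseline (1.19-fold to 49.1-fold), and between genotypes under TAC it was called with total-read scaling (1.44). Pcsk6, a relative that activates Corin, had 211 and 209 reads in CT and 152 and 155 in cKO, with ratios between -0.31 and 0.41. Ide (insulin-degrading enzyme) and Galnt1, an enzyme of O-linked glycosylation, were not called in any comparison.

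Cyclic GMP is the second messenger made by Npr1 and Npr2. Of 21 genes for its synthesis, breakdown and action 19 were listed. Of these, 2 were called between genotypes at baseline (against 5.06% of all genes), 1 under TAC (5.02%), 3 for TAC in CT (10.7%) and 2 for TAC in cKO (6.51%), with list medians of 0.05, 0.24, 0.23 and 0.02. Pde9a, a phosphodiesterase that is known to break down cyclic GMP from natriuretic peptide receptors, had 7.04 CPM in CT baseline (interval 4.24 to 11), 20.5 in CT TAC (14.7 to 27.8), 19.0 in cKO baseline (12.9 to 26.9) and 24.5 in cKO TAC (17.9 to 32.8). CT baseline was again the library apart, and the Pde9a intervals of the other 3 overlap. Pde9a was 1.37 log2 units higher in cKO baseline (1.47-fold to 5.04-fold) and 1.48 higher in CT TAC (1.65-fold to 5.30-fold). Pde1c, another phosphodiesterase, was 1.30 higher with TAC in CT (1.81-fold to 3.51-fold), on read values that are not whole.

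The other called genes of this list were lower in at least one comparison. Rgs2, a regulator of G protein signalling that the cyclic GMP kinase activates, was 1.72 log2 units lower with TAC in CT (0.158-fold to 0.505-fold), with 74 reads against 16. Gucy1a3, a subunit of the nitric oxide receptor, had 79 reads at baseline and 42 under TAC in CT, and 21 and 50 in cKO. It was lower in cKO baseline than in CT baseline (-1.16) and higher with TAC in cKO (1.05), the latter under 2-fold with 5 reads added (0.95). Mrvi1, a target of the same kinase, was lower with TAC in cKO (-1.11), also under 2-fold with 5 reads added (-0.92). Pde3b was lower in cKO TAC than in CT TAC (-1.54, 0.116-fold to 0.760-fold), with 7 reads against 24. Pln, the inhibitor of the calcium pump of the sarcoplasmic reticulum and the gene of this list with the most reads, was not called, with ratios between -0.76 and 0.45. Pde2a and Pde3a, next by reads, were not called either.

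Transcription factors known to act on the Nppa and Nppb promoters were called only lower in the comparisons against CT baseline. The list does not separate activators from repressors, and the part of these factors in the hormone results was not tested. All 17 were listed. At baseline 1 was lower in the library labelled cKO (against 1.8% of all genes), under TAC 1 was higher (2.93%), with TAC in CT 4 were lower (4.67%), and with TAC in cKO none was called. The list medians were 0.01, -0.11, -0.10 and -0.31. Tbx5, a T-box factor of the heart, had 53.4 CPM in CT baseline (interval 45.0 to 62.8) and between 23.2 and 28.8 CPM in the others, whose intervals overlap. Its log2 ratio was -1.18 in cKO baseline and -1.08 in CT TAC, both against CT baseline. Nkx2-5, the homeodomain factor whose site was searched above, had 72.7 CPM at baseline and 31.0 under TAC in CT, and 44.7 and 46.2 in cKO. It was 1.22 log2 units lower with TAC in CT (0.315-fold to 0.569-fold).

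Hand2, a basic helix-loop-helix factor, had 139 reads at baseline and 36 under TAC in CT, and 56 and 83 in cKO. It was 1.49 log2 units lower with TAC in CT and 1.31 higher in the library labelled cKO TAC than in CT TAC (1.68-fold to 3.82-fold). Hey2, with 10 reads in each baseline library, had 1 read in CT TAC (0.0031-fold to 0.947-fold). Among the factors with the most reads that were not called, Yap1, the coactivator that the Hippo kinases restrain, had 312 and 248 reads in CT and 135 and 161 in cKO, with ratios between -0.50 and 0.10. Myocd and Mef2a were not called either. In limma's fit over all 4 libraries, no gene of the supply, cyclic GMP or transcription factor lists passed for either effect. At an unadjusted p under 0.05 there were 1 of 8, 2 of 19 and 1 of 17 for the genotype, and 0 of 8, 8 of 19 and 1 of 17 for TAC, beside 7.77% and 16.2% of all genes.

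**Figure D5:**
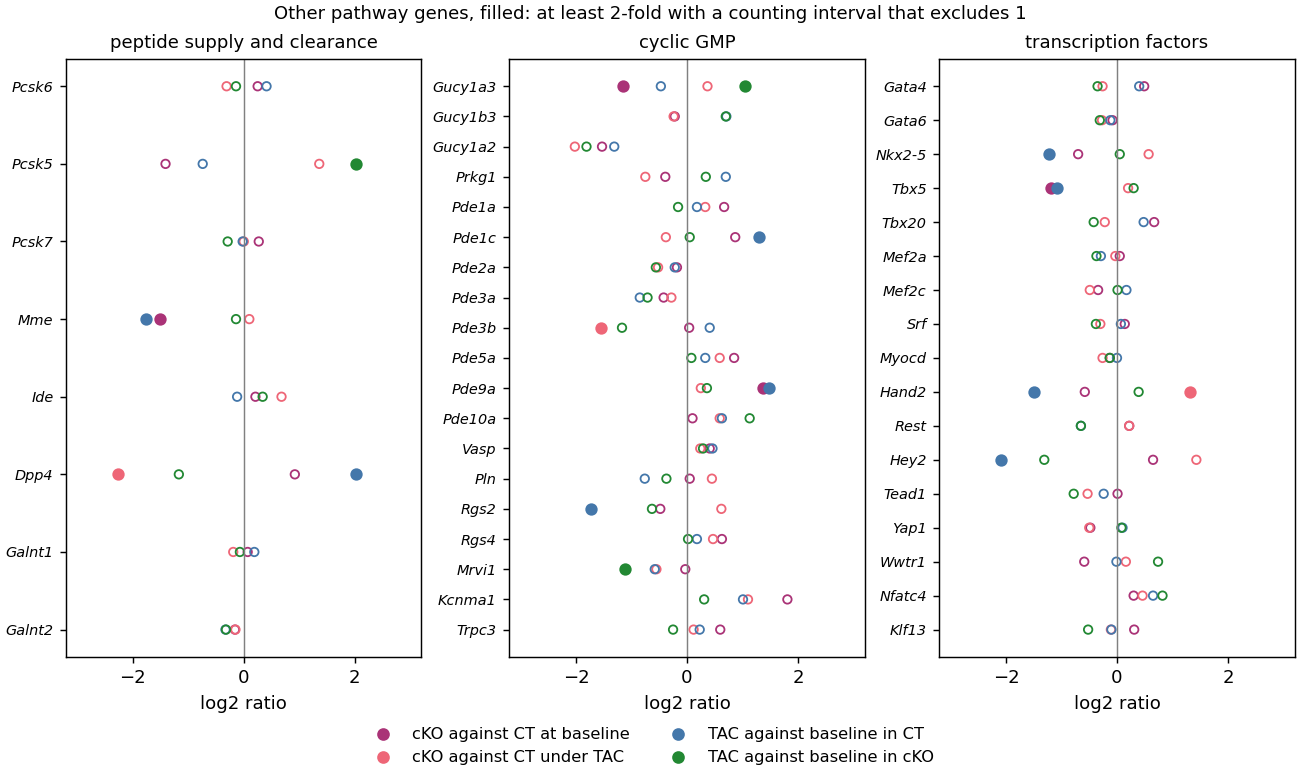
Log2 ratios in the 4 comparisons for the listed genes of peptide supply and clearance (8), cyclic GMP (19) and the transcription factors (17); filled points are at least 2-fold apart with a counting interval that excludes 1. Most points are open, and Mme, Pde9a and Tbx5 are filled in both comparisons against CT baseline.

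The genes most like a member in pattern were found by the Euclidean distance between log2 values centred on each gene's mean over the 4 libraries, among 9798 genes with a mean of at least 5 CPM. Nppa was nearest to Cilp (distance 0.96 log2 units), followed by Sumo2 (1.18), Ltbp2 (1.31), Mfap4 (1.33) and Comp (1.40). Cilp, a matrix protein, had 31 reads at baseline and 1113 under TAC in CT, and 207 and 1385 in cKO. Sumo2 had only 3 reads in CT baseline. Nppb was nearest to Clec12a (0.45), Lilr4b (0.50), Zfand2b (0.51), Timp1 (0.52) and Fcrls (0.60), of which the first 3 had 2 or 3 reads in CT baseline. Nppa and Nppb were 1.87 apart. Only 14 genes were closer to Nppa than Nppb was, while 696 genes were closer to Nppb than Nppa was. Furin was nearest to Slc25a25 (0.06), Sbk1 (0.10), Abhd18 (0.10), Tbx3 (0.11) and Ech1 (0.14). Ech1, an enzyme of fatty acid oxidation, had 9142 reads at baseline and 3317 under TAC in CT, and 2758 and 2739 in cKO. With 4 libraries such likeness is a description of these hearts. Corin, Npr1, Npr2 and Npr3 spanned less than 1 log2 unit and were not matched.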

How the data were processed

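Total RNA of mouse hearts was made into Illumina libraries, per the labels' protocols, 1 library per group. For the files the authors deposited, the submitters' processing notes list mm10 and, among tools, edgeR, HISAT2 and CASAVA, with no version or role. The counter, annotation and strand setting used are not given in these sources. The authors deposited log2 values for 12408 genes, read from the values as log2 CPM with 1 read, scaled by library size, added before the logarithm. Every listed gene exceeds 1 CPM in at least 2 libraries.

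Reads were recovered from the fixed step of each library (0.371 to 0.612 CPM per read), and in 19.7% of genes the value was not whole in at least 1 library (tolerance 0.01). The median gene had 30 to 48 reads. Log2 ratios are differences of the deposited values, which understate ratios of low genes. Levels in CPM leave out the added read. Ratio intervals are Clopper-Pearson and level intervals exact Poisson, at 95%. Levels per kilobase use GENCODE M21 exon lengths (97.1% of genes). All genes entered 1 fit of limma 3.58.1 (R 4.3.3) using its trend option, with Benjamini-Hochberg adjustment. This procedure was also run on simulated counts that held genotype changes only. That run does not test the fit where TAC responses differ between genotypes. With 1 library per group, spread within a group was not measured. Named genes were the 7 members, list genes that were called, up to 3 others with the most reads, Clcn6, the 5 nearest genes in pattern and Sav1. 1 neighbouring gene is not reported here. Members and lists were chosen with earlier results of these data known. Alternatives changed the scaling, the added reads, the gene filter and the model terms.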

Additional observations from a re-analysis of the deposited data

Results flagged for a closer look

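Several of the 7 genes had log2 ratios of opposite sign in the 2 genotypes or the 2 surgical states, some as near to no difference as 0.01. With 1 library on each side, none of these differences was tested. Between genotypes, Npr1 had a log2 ratio of cKO to CT of -0.27 at baseline and 0.01 under TAC, Npr2 of -0.40 and 0.03, Corin of -0.55 and 0.17, and Furin of -1.11 and 0.01. For TAC against baseline, Npr2 had -0.36 in CT and 0.07 in cKO, and Npr3 had -0.67 in CT and 0.18 in cKO. Of these values only that of Furin at baseline reached 2-fold. The counting interval included 1 for every second value of each pair except Corin under TAC (1.01-fold to 1.25-fold). For Npr1 between genotypes at baseline (0.624-fold to 1.08-fold) and Npr3 with TAC in CT (0.297-fold to 1.25-fold) the interval of the first value included 1 too.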

How the results depend on the processing

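Of 716 ratios of named genes under alternative settings, 712 stayed within their counting interval and no called value turned, and the 4 that moved include Nppa (0.95) and Nppb (0.68) between genotypes under TAC with total-read scaling. The 21 recomputed differences of the TAC response stayed within counting error. The number of members called between genotypes under TAC went from 0 to 1 (Npr3) with libraries scaled to total reads, while the members' counts and the counts over all genes stayed within 1.5 times in the other 2-library settings. Calls of list genes that changed were Pcsk5 (1.44, gained under TAC with total-read scaling), Cd68 (1.01, gained with TAC in CT with no read added), Gucy1a3 (0.95) and Mrvi1 (-0.92), both lost for TAC in cKO with 5 reads added, and Tagln (-0.99 and -0.96, lost at baseline with total-read scaling and with 5 reads added). The models were less stable. For the genotype, limma called 3 genes, 9 at a mean CPM of at least 5, and 0 without the trend or without the surgery term. For TAC it called 226 genes, 99 with 5 reads added, 0 without the trend and 20 without the genotype term. Leaving out 1 library, which also required dropping the other term, gave 13, 89, 0 and 0 genes for the genotype and 9, 35, 87 and 59 for TAC, each time without CT baseline, CT TAC, cKO baseline and cKO TAC in turn. These fits mix the effects and leave 1 side with a single library, assumed to vary like the others. In them 5 member effects that had not passed turned: Corin (0.22) and Furin (0.05) for the genotype and Npr2 (0.06) for TAC without CT baseline, Npr1 (0.1) for the genotype without cKO baseline, and Npr3 (0.21) for TAC without CT TAC. Without CT TAC the genotype effect was 4.81 for Nppa and 2.85 for Nppb, both past the threshold, with CT baseline as the sole control library. The cause was not tested. No paired analysis was possible because each group holds 1 library and the labels carry no replicate numbers. Depth limits, among others, Npr3, Mme, Dpp4, Pcsk5, Hey2, Pde3b, Dkk3, Cytl1 and Myl4, each with under 30 reads per library.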
